A study of Homo sapiens with 12 samples.

Results

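XBP1 and ARF1 were followed through their poly(A) sites, the positions at which their mRNAs end, in 12 libraries of HEK293T cells, a human embryonic kidney line. The sites were those of hg19 in a window of XBP1 (minus strand of chromosome 22, 29190000 to 29196600) and a window at the end of ARF1 (plus strand of chromosome 1, 228284000 to 228287500) with at least 10 reads in any library. They numbered 9 of the 66766 sites of the series with that many reads, 5 in XBP1 and 4 in ARF1. In 4 groups of 2 libraries, a STAU1-knockout line transiently expressed either STAU1-FLAG or FLAG-GFP, and the RNA bound to anti-FLAG beads (IP) was sequenced beside that of the lysate before pull-down (input). All 8 of these libraries therefore lack the cells' own STAU1, and the STAU1 that was pulled down was expressed from a transfected construct. In 4 further groups of 1 library each, polysomal and cytoplasmic RNA came from STAU1-knockout cells and from the isogenic control, called wild type (WT). The knockout and the control are 1 cell line each. Reads were counted by 3'READS+, which sequences the last stretch of polyadenylated RNA and assigns each read to a 3' end.

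Staufen1 (STAU1) is an RNA-binding protein that recognises double-stranded stretches of RNA, often stems within the 3' UTR of an mRNA. It is known for carrying and localising mRNAs, for a decay pathway of mRNAs that carry a Staufen-binding stem, and for effects on translation. The ARF1 mRNA is a textbook target of that decay pathway, and the 3' UTR of the XBP1 mRNA is known for a long-range duplex that STAU1 binds. XBP1 encodes a transcription factor of the unfolded protein response, whose mRNA is spliced at the endoplasmic reticulum by IRE1 when unfolded proteins accumulate. ARF1 encodes a small GTPase that recruits coat proteins to Golgi membranes.

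Nearly all reads of each gene fell on few ends. XBP1 had 1 main end, at position 29190549, with 8890 of the 9331 reads of its window in the pull-down table. Upstream of it, 4 minor ends lay at distances of 95, 502, 560 and 626 nt, with 139, 30, 188 and 55 reads. ARF1 had a pair of abundant ends on the plus strand of chromosome 1, a proximal one at 228286824 (9306 reads) and a distal one 86 nt downstream at 228286910 (6847 reads). A minor ARF1 end lay 67 nt upstream of the proximal one, at 228286757, with 86 reads. The fraction table held the same 3 abundant ends at the same positions. There the minor XBP1 end 560 nt upstream of the main one had 191 reads, and a minor ARF1 end at 228286764 had 71. Counts of sites over the whole series match the 2 tables by exact position. The minor ARF1 ends at 228286757 and 228286764 therefore count as separate sites, and each table alone held 3 ARF1 sites. Sites with fewer than 10 reads in every library made up 0.311% of the XBP1 reads and 0.233% of the ARF1 reads in the pull-down table, and 2.35% and 0.227% in the fraction table. The deposited tables name no gene, so the genes come from the windows, and their chromosomes and strands are those of XBP1 and ARF1 in RefSeq.

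Sequencing gave 6212606 and 5727812 reads for the STAU1 IP, against 5567893 and 9655646 for its input. For the GFP IP it gave 1291888 and 1245270 reads, against 7636541 and 8932299 for its input, so that ratios against the GFP pull-down have the fewest reads behind them. The STAU1 inputs covered unequal numbers of sites, 99156 in replicate 1 and 175098 in replicate 2. The labels do not say whether replicates came from separate cultures, so the p-values cover the spread between these libraries, which may be technical. STAU1's own transcript in the knockout and markers of the cell line were not analysed here.

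XBP1 was higher in the STAU1 pull-down than in its input. Its main end had 1764 and 1920 reads in the STAU1 IP, against 726 and 1290 in the STAU1 input. Scaled for depth by TMM to CPM, these were 273 and 316 CPM in the IP, against 130 and 147 CPM in the input. Both IP libraries lay above both input libraries, an order whose share among all sites was not counted. The log2 ratio was 1.09 ± 0.25 (SE; edgeR quasi-likelihood test with p adjusted by Benjamini-Hochberg, adjusted p = 0.0116), a 2.13-fold difference.

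The proximal end of ARF1 was also higher in the STAU1 pull-down, and its distal end did not pass the test. The proximal end had 241 and 311 CPM in the STAU1 IP, against 136 and 173 CPM in the STAU1 input, without overlap of the groups. Its log2 ratio was 0.84 ± 0.23 (SE; edgeR quasi-likelihood test, adjusted p = 0.0348), or 1.79-fold. The distal end had 146 and 180 CPM in the IP, against 123 and 138 CPM in the input, with a log2 ratio of 0.32 ± 0.22 (SE; adjusted p = 0.472 by the same test). Its groups did not overlap either, but an exact permutation test of 2 libraries against 2 cannot go below p = 0.333. The share of all sites without overlap of the groups was not counted, for this or any other comparison here.

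Of the 8 sites of these genes in the pull-down table, 7 passed the filter on low counts and were tested. In the STAU1 pull-down 2 of them were called higher and 0 lower, while 3.06% of all 33744 tested sites were called higher and 2.99% lower. Those shares rest on 1032 and 1008 sites, and without STAU1 input replicate 1 the sites called higher were 443, and without STAU1 IP replicate 1 those called lower were 564. Summed over its window, XBP1 had 303 ± 30.3 CPM in the STAU1 IP and 151 ± 13.2 CPM in the STAU1 input (SD, n = 2 each). The log2 ratio of the XBP1 sum was 1.00 ± 0.25 (SE; edgeR quasi-likelihood test, adjusted p = 0.0175). The ARF1 sum had 443 ± 74.8 CPM in the STAU1 IP and 287 ± 39.0 CPM in the STAU1 input (SD, n = 2 each). Its log2 ratio of 0.63 ± 0.21 (SE) did not pass the test (adjusted p = 0.0877 by edgeR). With the sums in the table, 3.06% of its 33739 rows were called higher. The call at the XBP1 main end was lost without STAU1 input replicate 1 (adjusted p = 0.104 by edgeR), and the XBP1 sum lost it without STAU1 IP replicate 2 or either STAU1 input replicate (0.0691, 0.135 and 0.0543) and with no filter on low counts (0.103). The ARF1 proximal end lost it without STAU1 IP replicate 2 (0.221), STAU1 input replicate 1 (0.259), GFP IP replicate 1 (0.0617) or GFP IP replicate 2 (0.0530), and with no filter on low counts (0.910) or nuclear sites only (0.0534). The ARF1 sum passed without GFP input replicate 2 (0.0474) and with library totals as scaling, at least 30 reads, DESeq2 or the replicate number as a block (adjusted p between 0.0147 and 0.0488).

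**Figure D1:**
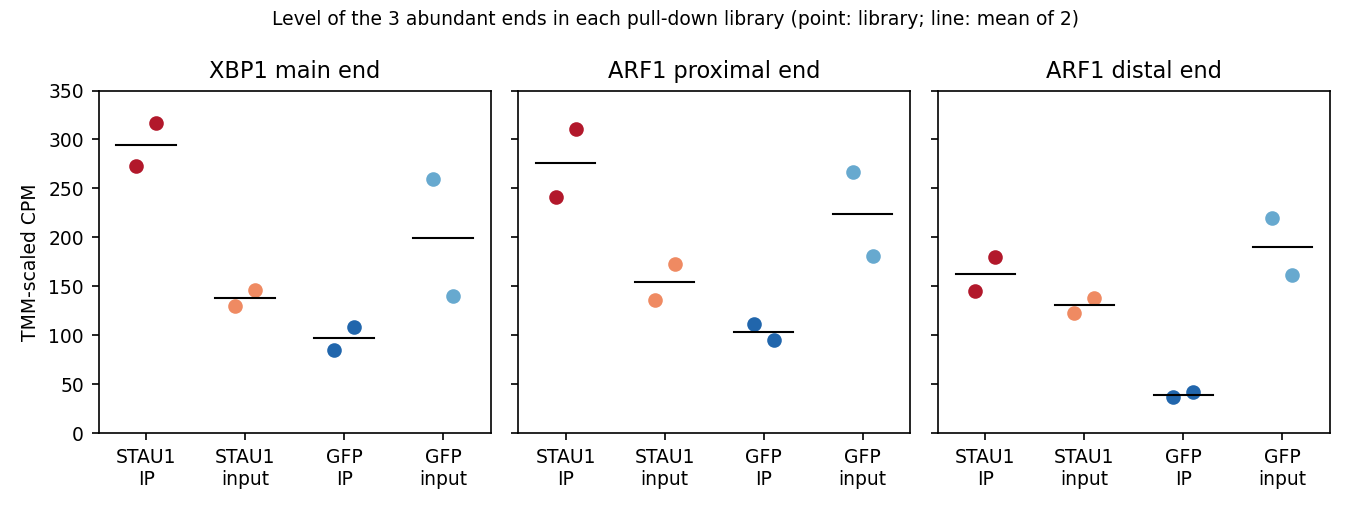
Level of the main end of XBP1 and of the proximal and distal ends of ARF1, in TMM-scaled CPM, with a point for each of the 8 pull-down libraries and a line at the mean of each group of 2. The STAU1 IP lies above its input at all 3 ends, and the GFP IP lies below its input at all 3, with 39.1 CPM at the ARF1 distal end.

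The tagged control went the other way: in the GFP pull-down the 3 abundant ends were all lower than in the GFP input. XBP1's main end had 123 and 149 reads in the GFP IP, against 1826 and 1092 in the GFP input. These were 85.0 and 109 CPM in the IP, against 259 and 140 CPM in the input. The groups did not overlap, although the GFP inputs differed widely between replicates, and the share of all sites without overlap was not counted. The log2 ratio was -1.05 ± 0.26 (SE; edgeR quasi-likelihood test, adjusted p = 0.0188).

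At the proximal end of ARF1 the GFP IP had 111 and 95.5 CPM, against 266 and 181 CPM in the GFP input, a log2 ratio of -1.11 ± 0.24 (SE; edgeR quasi-likelihood test, adjusted p = 0.00642). The distal end stood lowest. It had 53 and 57 reads in the GFP IP, or 36.6 and 41.5 CPM, against 1544 and 1258 reads in the GFP input, or 219 and 161 CPM. Its log2 ratio was -2.28 ± 0.25 (SE; adjusted p = 1.24e-05 by the same test). It ranked 2207 of the 2235 abundant sites from the highest, against 1824 for the XBP1 main end and 1874 for the ARF1 proximal end.

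The GFP pull-down called 3 of the 7 tested sites lower and 0 higher, while 3.99% of all tested sites were called lower and 2.11% higher (1348 and 711 sites, against 413 and 271 without GFP IP replicate 1). The XBP1 sum had 104 ± 14.4 CPM in the GFP IP and 209 ± 85.9 CPM in the GFP input (SD, n = 2 each), and the ARF1 sum 143 ± 6.71 CPM in the IP and 417 ± 102 CPM in the input. Both were called lower (edgeR adjusted p = 0.0213 and 0.000171), as were 3.99% of the rows with sums. The XBP1 main end lost this call without either GFP IP replicate (adjusted p = 0.303 and 0.0838 by edgeR) or GFP input replicate 1, where its log2 ratio was -0.49 (adjusted p = 0.502), and with library totals as scaling (-0.75, adjusted p = 0.114) or at least 30 reads (-0.81, adjusted p = 0.0527). The XBP1 sum lost it under the same 5 conditions (adjusted p between 0.0586 and 0.463). The ARF1 proximal end lost it without the same libraries (0.0721, 0.116 and 0.126), and the distal end kept it without any 1 of the 8 libraries.

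Pull-down beyond the tagged control was measured by the double ratio, in which the ratio of IP to input with STAU1 is divided by that with GFP. All 3 abundant ends were called higher. The XBP1 main end had a log2 double ratio of 2.13 ± 0.36 (SE; edgeR quasi-likelihood test, adjusted p = 0.00659), or 4.39-fold. The ARF1 proximal end had 1.95 ± 0.33 (SE; adjusted p = 0.00659 by edgeR), or 3.87-fold, and the ARF1 distal end 2.60 ± 0.33 (SE; adjusted p = 0.000776 by edgeR), or 6.06-fold. Among the 2235 abundant sites, whose median was 0.18, the ARF1 distal end ranked 6 from the highest, the XBP1 main end 22 and the ARF1 proximal end 40.

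Of the 7 tested sites, 3 were called higher and 0 lower in the double ratio, while 0.53% of all tested sites were called higher and 0.157% lower (179 and 53 sites, against 17 and 5 without GFP IP replicate 1). At the XBP1 main end and the ARF1 proximal end the STAU1 pull-down was called higher and the GFP pull-down lower as well. This pattern was met by 0.08% of all tested sites. The called ends are among the 2235 abundant sites, while these shares of calls are over all 33744 tested sites. Shares among abundant sites alone were not counted, so how far read depth enters them was not tested. The ends differed in how the double ratio was made up. At the XBP1 main end its parts were of like size, 1.09 with STAU1 and -1.05 with GFP, and at the ARF1 distal end they were 0.32 and -2.28. The STAU1 value of the ARF1 distal end was 0.46 when STAU1 IP replicate 1 was left out and 0.16 when replicate 2 was. The summed reads gave a log2 double ratio of 2.00 ± 0.35 for XBP1 and 2.17 ± 0.30 for ARF1 (SE; edgeR quasi-likelihood test, adjusted p = 0.00883 and 0.00171), and 0.528% of the rows with sums were called higher.

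The double ratio of the XBP1 main end lay between 1.59 and 2.49 when 1 library was left out, and it lost its call without GFP IP replicate 1 or 2 (adjusted p = 0.136 and 0.0600 by edgeR). The ARF1 proximal end lay between 1.62 and 2.19 and lost its call without STAU1 input replicate 1 (0.0534), GFP IP replicate 1 (0.0825) or GFP IP replicate 2 (0.0878), while the distal end lay between 2.33 and 2.79 and kept its call without any 1 of the 8 libraries. The XBP1 sum lost its call without STAU1 input replicate 1 (0.0601), GFP IP replicate 1 (0.156), GFP IP replicate 2 (0.0683) or GFP input replicate 1 (0.0510), and the ARF1 sum without GFP IP replicate 1 (0.0503).

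**Figure D2:**
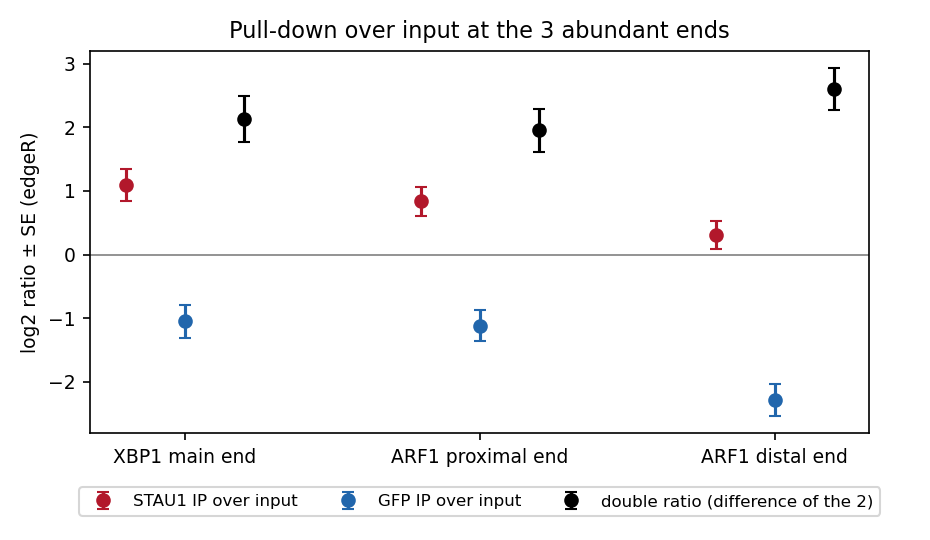
Log2 ratio of IP over input with STAU1 and with GFP, and their difference (the double ratio), at the 3 abundant ends; bars are ± SE from edgeR. The STAU1 values lie between 0.32 and 1.09, the GFP values between -2.28 and -1.05, and the double ratios between 1.95 and 2.60.

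**Figure D3:**
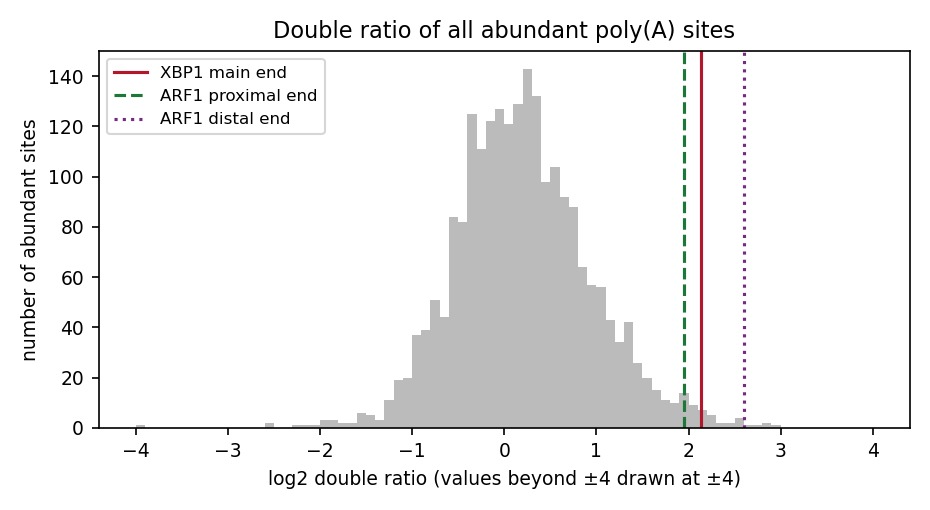
Distribution of the log2 double ratio over the 2235 abundant poly(A) sites (bars, number of sites), with vertical lines at the XBP1 main end (2.13), the ARF1 proximal end (1.95) and the ARF1 distal end (2.60). The lines lie in the upper tail, beyond the median of 0.18.

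The inputs enter the double ratio, and the 3 abundant ends had less in the STAU1 input than in the GFP input, with log2 ratios of -0.53 ± 0.25 (XBP1 main end), -0.54 ± 0.23 (ARF1 proximal) and -0.54 ± 0.22 (ARF1 distal; SE). None of the tested sites of the 2 genes passed the test of this difference (edgeR quasi-likelihood test, adjusted p = 1 at each). By the same test, the unadjusted p at the 3 abundant ends was 0.0478, 0.0301 and 0.0240, in the order above. Among the 2235 abundant sites they ranked 2164, 2170 and 2175 from the highest. Over all sites the same test called 3 sites higher (0.00889%) and 0 lower (0%), against 10 and 32 without STAU1 input replicate 2. At an unadjusted p under 0.05 it gave 638 higher and 717 lower, and DESeq2 called 19 higher and 0 lower. Without GFP input replicate 1 the value at the XBP1 main end was 0.019, and at the ARF1 ends it was -0.20 and -0.27.

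None of the 4 tested minor ends passed a test. The XBP1 end 560 nt upstream of the main one had 26 and 13 reads in the STAU1 IP, against 28 and 71 in the STAU1 input. With GFP it had 5 and 3 reads in the IP, against 16 and 26 in the input. Its log2 double ratio was -1.09 ± 1.32 (SE; edgeR adjusted p = 0.835). The XBP1 end 95 nt upstream had 2 and 18 reads in the STAU1 IP, against 36 and 22 in the STAU1 input, and a log2 double ratio of -1.07 ± 1.66 (SE; edgeR adjusted p = 0.881). These ends lay on the other side of 0 from the main end, with SEs larger than the values.

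The XBP1 end 626 nt upstream and the minor ARF1 end had double ratios of 3.04 ± 2.99 and 3.16 ± 2.44 (SE; edgeR adjusted p = 0.778 and 0.699), on the same side of 0 as the abundant ends. They held 25 and 6 reads and 14 and 23 reads in the STAU1 IP, against 0 and 7 and 0 and 16 in the STAU1 input. The XBP1 end 502 nt upstream was not tested, with 0 and 7 reads in the STAU1 IP against 0 and 13 in its input, and 0 and 0 reads in the GFP IP against 0 and 10 in its input.

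Whether one end of a gene was pulled down more than another was asked by the share of each end among the reads of its gene. ARF1 molecules ending at the distal site made up a smaller share in both pull-downs than in the inputs. Of the reads at both abundant ends, the distal end took 37.7% and 36.6% in the STAU1 IP, against 47.6% and 44.4% in the STAU1 input. In the GFP IP it took 24.8% and 30.3%, against 45.1% and 47.1% in the GFP input. The mean share was 37.2 ± 0.739% in the STAU1 IP and 46.0 ± 2.29% in the STAU1 input (SD, n = 2 each). With GFP it was 27.5 ± 3.93% in the IP and 46.1 ± 1.37% in the input (SD, n = 2 each). Neither pull-down overlapped its input, and how many other pairs of ends show such an order was not counted.

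The test of use within a gene did not call these shares. The change in use of the distal ARF1 end, relative to all tested ends of the gene, was -0.22 on the log2 scale in the STAU1 pull-down (edgeR diffSpliceDGE, adjusted p = 1). It was -0.52 in the GFP pull-down (adjusted p = 0.858, unadjusted p = 0.0300, by the same tool) and 0.30 in the double ratio (adjusted p = 1.00). Over all 20929 sites tested for use, 0.301% were called in the STAU1 pull-down, 0.086% in the GFP pull-down and 0.0143% in the double ratio. An exact permutation test of 2 libraries against 2 cannot go below p = 0.333.

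The main end of XBP1 took 96.9% and 97.7% of the gene's reads in the STAU1 IP, against 91.9% and 91.4% in the STAU1 input. The GFP libraries did not show the same order, with 90.4% and 94.9% in the GFP IP against 96.3% and 94.7% in the GFP input. The change in use was 0.06 for the main end in the STAU1 pull-down (edgeR diffSpliceDGE, adjusted p = 1). It was -1.69 and -1.45 for the minor ends 95 and 560 nt upstream (adjusted p = 0.617 and 0.646 by the same tool).

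**Figure D4:**
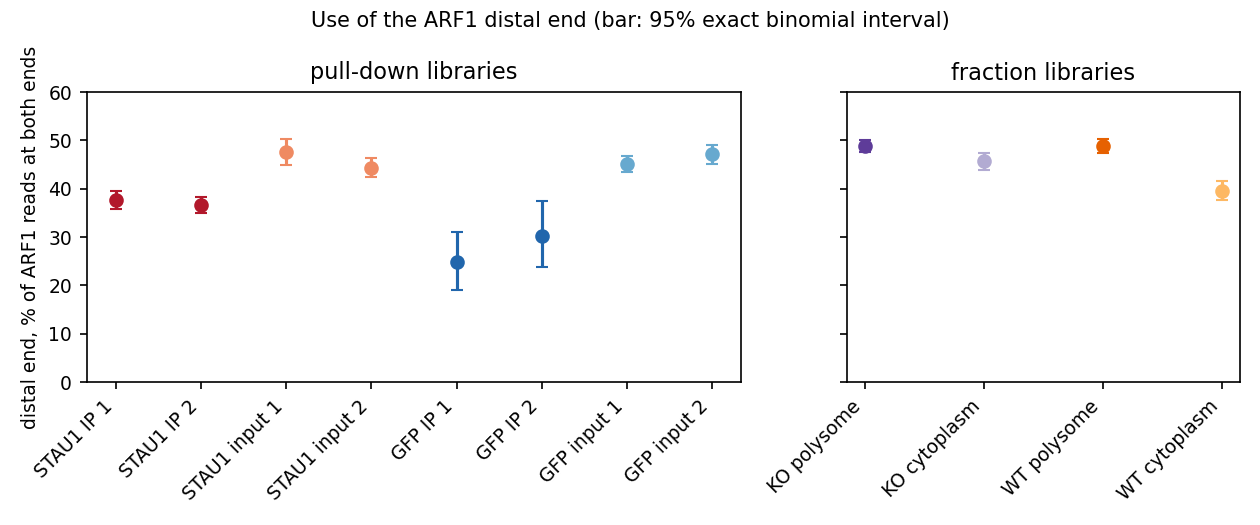
Share of the ARF1 distal end among the reads at both abundant ARF1 ends, in percent, in each of the 8 pull-down libraries (left) and the 4 fraction libraries (right); bars are 95% exact binomial intervals, which cover counting error only. The pull-downs lie between 24.8% and 37.7%, the inputs between 44.4% and 47.6%, and the WT cytoplasm at 39.6% lies below the other fractions.

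The fractions ask whether the share of each mRNA on polysomes, the ribosome-bearing fraction, differs without STAU1. With 1 library per combination there is no replicate and no test, the comparisons are of 4 libraries, and intervals are 95% counting intervals. The libraries held 3483937 (knockout polysome), 3232580 (knockout cytoplasm), 2799226 (WT polysome) and 2904902 reads (WT cytoplasm). Mitochondrial sites took 4.41% and 13.9% of the knockout reads in polysomes and cytoplasm, and 5.26% and 18.3% of the WT reads. With nuclear sites only, the log2 polysome ratio of the XBP1 main end was 1.11 in the knockout and 0.36 in wild type, a difference of 0.74. With all sites these values were 1.12, 0.36 and 0.76. The ARF1 ends had 0.62 and 0.46 (proximal) and 0.80 and 1.00 (distal) in knockout and wild type with nuclear sites only. Other effects of the mitochondrial share were not tested. With library totals in place of TMM, ratios of polysome to cytoplasm were higher in both genotypes.

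XBP1 stood higher on polysomes in the knockout than in wild type. Its main end had 1067 reads (279 CPM) in knockout polysomes and 393 reads (128 CPM) in knockout cytoplasm, a log2 ratio of 1.12 (0.95 to 1.29). In wild type it had 600 reads (200 CPM) in polysomes and 406 reads (156 CPM) in cytoplasm, a log2 ratio of 0.36 (0.18 to 0.54). The intervals did not overlap.

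The knockout minus WT difference of the polysome ratio at the XBP1 main end was 0.76 (0.51 to 1.01). Of the 4766 sites with 50 reads or more in all 4 libraries, 2.69% had a difference as high, and of the 1102 sites with at least 300 reads 1.09%. The SD of the difference over these sites was 0.39 and 0.30 around medians of 0.0063 and 0.020. The XBP1 main end was more than 2-fold higher in polysomes than in cytoplasm in the knockout, as were 1.64% of the 4766 sites there. In wild type it was 1.28-fold higher, where 2.52% of sites were more than 2-fold higher. The knockout minus WT difference itself came to 1.69-fold, and 0.692% of sites were past 2-fold. The difference had parts in both fractions. XBP1 was 0.48 higher (0.34 to 0.63) in knockout than in WT polysomes and differed by -0.28 (-0.48 to -0.07) between knockout and WT cytoplasm, on the log2 scale. The minor XBP1 end 560 nt upstream lay in the same direction, with a difference of 0.64 whose interval held 0 (-0.25 to 1.53).

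ARF1 was on the polysome side in both genotypes, and the interval of the difference between them held 0. The summed ARF1 reads were 1683 CPM in knockout polysomes and 1025 CPM in knockout cytoplasm, against 1642 CPM in WT polysomes and 1021 CPM in WT cytoplasm. The log2 polysome ratios were 0.72 (0.65 to 0.78) in the knockout and 0.68 (0.62 to 0.75) in wild type, and their difference was 0.03 (-0.06 to 0.12).

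The ends of ARF1 lay on opposite sides of 0 within this total. At the proximal end the polysome ratio was 0.63 (0.55 to 0.72) in the knockout and 0.45 (0.36 to 0.55) in wild type, a difference of 0.18 (0.05 to 0.30). At the distal end it was 0.82 (0.72 to 0.91) in the knockout and 1.00 (0.89 to 1.10) in wild type, a difference of -0.18 (-0.32 to -0.04). As high a difference was seen at 32.0% of the 4766 sites for the proximal end and at 69.3% for the distal end, so that neither stood apart from the spread of all sites.

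In polysomes the distal end took 48.8% (47.6 to 50.0) of the reads of both ends in the knockout and 48.9% (47.5 to 50.3) in wild type. In cytoplasm it took 45.7% (43.9 to 47.4) in the knockout and 39.6% (37.7 to 41.5) in wild type (exact binomial intervals). The intervals of the genotypes overlapped in polysomes and not in cytoplasm. In both genotypes the polysome ratio was higher at the distal end than at the proximal end.

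**Figure D5:**
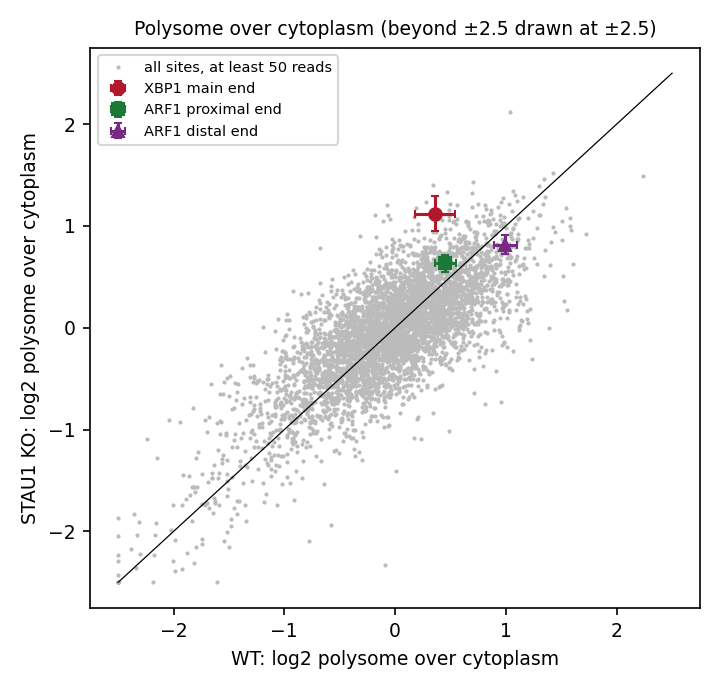
Log2 ratio of polysome to cytoplasm in STAU1-knockout cells (vertical) against wild type (horizontal) for the 4766 sites with 50 reads or more in all 4 libraries (grey) and the 3 abundant ends of XBP1 and ARF1, with 95% counting intervals; the line marks equal values. XBP1 lies above the line at 1.12 against 0.36, and the ARF1 ends lie on either side of it.

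The levels of the ends across the 8 pull-down libraries followed each other, and they followed some other sites more closely. As a description over 8 libraries that share depth and scaling, the XBP1 main end and the ARF1 proximal end had a Pearson correlation of log2 CPM of 0.95. The ARF1 proximal and distal ends had 0.87 and the XBP1 main end and ARF1 distal end 0.80. Among 2232 other abundant sites, those most like the XBP1 main end were on minus strands, at 64979776 on chromosome 15 (r = 0.97), 4838354 on chromosome 19 (0.96) and 134249419 on chromosome 8 (0.95). Those most like the ARF1 proximal end were also on minus strands, at 73386940 (chromosome 11), 64979776 (chromosome 15) and 37049239 (chromosome 20), each with r = 0.97. The median correlation of the 2232 sites was 0.067 with XBP1 and 0.13 with ARF1. The double ratios of these 5 sites lay between 1.18 and 1.96, and not all of them passed the test. The sites were picked by their levels in the same 8 libraries that give the double ratio. These values are therefore no separate result.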

How the data were processed

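The submitters' processing notes name STAR and hg19. The values the authors deposited are read counts, not normalized, at each poly(A) site, in 1 table for the 8 pull-down libraries (640413 sites) and 1 for the 4 fraction libraries (189010 sites). The clustering of sites and the filtering of reads are not given in the sources used here. Members, gene windows and lists were chosen with earlier results of these data known.

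The main test was the quasi-likelihood test of edgeR 4.0.16 (R 4.3.3), fitted to the counts of all 8 pull-down libraries. A mean for each of 4 groups leaves 4 residual degrees of freedom. The test also draws on the spread of the other tested sites, so its p-values do not rest on these 4 alone. It used TMM scaling, the sites kept by filterByExpr for these groups (33744), Benjamini-Hochberg adjustment over all tested sites and a threshold of 0.05. The SE is the absolute log2 ratio divided by the square root of the F statistic. For sums, 1 row replaced the sites of each window. Use of ends was tested with diffSpliceDGE, other sites being grouped in runs with gaps of at most 5000 nt. DESeq2 1.42.0 was an alternative. For fractions, TMM-scaled log2 ratios have exact conditional counting intervals. Intervals cover the counting error of reads only, and PCR copies, which are not separate molecules, would make them too narrow. Scripts were tested on simulated data. Replicates differed beyond sampling noise (chi-square per site 4.02 to 17.7).

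Described in full were each gene's most used end and its other tested sites. Most alike were the 3 abundant sites (average log2 CPM of at least 6) with the highest Pearson correlation of log2 CPM (prior count 2). Lists of unfolded protein response and ARF pathway genes were not analysed here, since no table of hg19 names the sites.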

Additional observations from a re-analysis of the deposited data

Results flagged for a closer look

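The pull-down over input differed between STAU1 and GFP, by the test of the difference itself, at the XBP1 main end (log2 double ratio 2.13), the ARF1 proximal end (1.95) and the ARF1 distal end (2.60). Sites outside the windows were searched on the same strand within 15000 nt, with at least 10 reads in any library. A pair of them had more depth-scaled reads in both STAU1 IP libraries than in any other library. One, at position 29197404 of chromosome 22 (minus strand), lay 6855 nt upstream of the XBP1 main end. That is farther than the XBP1 gene is long in RefSeq (6010 nt in GRCh38). The site had 79 reads with the STAU1 IP (13 and 66), against 0 and 0 with its input. With GFP it had 1 and 0 reads in the IP, against 1 and 0 in the input. Set against a floor of 3 reads over both STAU1 inputs, it was 30.2-fold higher in the STAU1 IP. From STAU1 IP replicate 1 alone it was 9.63-fold higher, since 83.5% of the reads came from replicate 2. The floor allows for the input only, so neither fold is a lower bound. Both folds come from the reads by which the site was picked. The site was picked for its reads in the STAU1 IP, so no test of it is given. The fraction libraries held 0 reads within 24 nt of it. The other, at position 228294806 of chromosome 1 (plus strand) and downstream of the ARF1 ends, had 37 reads with the STAU1 IP (24 and 13), against 0 and 7 with its input. With GFP it had 0 and 0 reads in the IP, against 15 and 6 in the input. Its place above GFP input replicate 1 rests on the scaling, with 13 reads in STAU1 IP replicate 2 against 15 there. It was picked in the same way, and the fraction libraries held 1 read within 24 nt of it. No gene is given for either site. The other sites searched did not have this order. One of them, at position 228274216 of chromosome 1 (plus strand), had 62 and 28 reads in the STAU1 IP, against 25 and 61 in its input. With GFP that site had 8 and 13 reads in the IP, against 33 and 67 in the input, and its log2 double ratio was 0.14.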

How the results depend on the processing

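The double ratio of the 3 abundant ends and of both sums kept its direction and its call under RLE size factors, library totals, no filter, at least 30 reads, DESeq2, the replicate block and nuclear sites only. For the other values that changed their side of the threshold or their direction, the cause was not tested. With library totals the GFP pull-down over input fell short at XBP1 (-0.75 at the main end, -0.71 for the sum), and the ARF1 sum passed in the STAU1 pull-down (0.77). With at least 30 reads the same 3 values were -0.81, -0.77 and 0.66. The ARF1 sum also passed with DESeq2 (0.66). Without a filter the STAU1 pull-down fell short at the ARF1 proximal end (0.62) and the XBP1 sum (0.79), and with nuclear sites only at the ARF1 proximal end (0.78). The median log2 double ratio of all sites was 0.30 with TMM, 0.18 with RLE and 0.14 with library totals, and that of the GFP pull-down -0.16, -0.0019 and 0.13. GFP calls were 711 higher and 1348 lower with TMM, 925 and 1050 with RLE and 1211 and 751 with library totals. STAU1 calls were 1032 and 1008 with TMM and 1417 and 834 with library totals. Double ratio calls were 179 and 53 with TMM, 154 and 96 with RLE, 133 and 97 with library totals, 441 and 323 with DESeq2 and 389 and 123 with the replicate block.

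The labels do not say that same-numbered replicates share a lysate, and their deviations correlated at -0.056 between STAU1 IP and input and at 0.083 between GFP IP and input. With the replicate block the ARF1 sum passed in the STAU1 pull-down (0.63), no call of an abundant end changed, and the use of the minor ARF1 end with GFP and of the XBP1 end 626 nt upstream in the double ratio turned to -0.47 and -0.083.

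Leaving out 1 library at a time gave these lowest and highest log2 values. For the XBP1 main end they were 0.98 and 1.19 with STAU1, -1.39 and -0.49 with GFP, 1.59 and 2.49 in the double ratio and -0.88 and 0.019 between inputs. For the XBP1 sum they were 0.90 and 1.10, -1.34 and -0.51, 1.51 and 2.35, and -0.81 and 0.031. For the ARF1 proximal end they were 0.64 and 1.01 with STAU1, -1.34 and -0.77 with GFP and 1.62 and 2.19 in the double ratio. For the ARF1 sum they were 0.44 and 0.79 with STAU1 and 1.89 and 2.38 in the double ratio, where it lost its call without GFP IP replicate 1 (adjusted p = 0.0503 by edgeR). Minor ends changed sign in several of these comparisons. The XBP1 end 95 nt upstream gave -0.97 and 0.80 with GFP and -0.55 and 1.45 between inputs, and the end 560 nt upstream -0.36 and 0.34 with GFP (-0.43 without a filter, -0.055 with nuclear sites only). The end 626 nt upstream gave -1.53 and 4.98 with GFP, -2.48 and 7.20 in the double ratio and -5.45 and 4.22 between inputs, and its use -0.12 and 3.77 with GFP and -2.73 and 3.57 in the double ratio. The use of the minor ARF1 end gave -3.61 and 0.74 with GFP and -0.037 and 4.33 in the double ratio. Other minor ends kept their sign in the double ratio. There the minor ARF1 end gave 2.16 and 8.43, the XBP1 end 95 nt upstream -3.39 and -0.21 and the end 560 nt upstream -1.62 and -0.72. Calls over all sites ranged between 443 and 1505 higher and 564 and 964 lower with STAU1, 271 and 897 higher and 413 and 1542 lower with GFP, 17 and 390 higher and 5 and 111 lower in the double ratio, and 0 and 10 higher and 0 and 32 lower between inputs.

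In the fractions, library totals moved the polysome ratio to 1.33 in the knockout and 0.62 in wild type at the XBP1 main end, 0.85 and 0.71 at the ARF1 proximal end and 1.03 and 1.25 at the ARF1 distal end. The summed ARF1 reads gave polysome ratios of 0.72 in the knockout and 0.68 in wild type, a difference of 0.03, and 0.0048 for knockout over WT in cytoplasm. The standing among sites with at least 300 reads was chosen after seeing the data.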
